A study of Mus musculus with 8 samples.

Results

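*Rpgrip1* and 8 other genes of the photoreceptor connecting cilium (*Rpgr*, *Rpgrip1l*, *Nphp4*, *Cep290*, *Sdccag8*, *Lca5*, *Spata7* and *Iqcb1*) were compared between *dmbo* and WT mouse retinas. They were chosen by gene symbol, and they are 9 of the 21652 genes with a symbol on the array, each represented by its brightest probe set by the mean of all arrays. The 4 *dmbo* retinas came from mice homozygous for a nonsense mutation of *Hmx1*, a homeobox transcription factor, and the 4 WT retinas came from C57BL/6J mice. All mice were at postnatal day 15, and the labels give C57BL/6J as the strain of both groups. The *dmbo* line and the WT mice came from different suppliers. The *dmbo* line was backcrossed to C57BL/6J for a few additional generations, which also served to remove an *Rd1* mutation found in it. By the methods each retina was taken from a different animal, and its RNA was measured on its own Affymetrix Mouse Gene 1.0 ST array. Values are log2 signals, normalized between arrays, so a difference of 1 is a doubling. A gene was called when its limma adjusted p was under 0.1 and its change was at least 1.2-fold (0.26 on the log2 scale).

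The connecting cilium is the thin bridge between the inner and outer segments of a rod or cone, and it corresponds to the transition zone of other cilia. Proteins of the outer segment are made in the inner segment and pass through it. Many of its proteins form complexes with each other, and mutations of the human genes are known from Leber congenital amaurosis, retinitis pigmentosa and syndromes that join retinal degeneration with kidney disease.

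The arrays differed in transcripts that do not belong to the genes studied. In 2 of the *dmbo* arrays they went against a single mouse per array. The signal of *Xist*, which is made from the inactive X of females, was 10.58, 12.73, 12.85 and 12.87 in *dmbo* replicates 1 to 4, against 6.44, 12.80, 6.65 and 6.46 in WT replicates 1 to 4. The mean signal of 4 Y-linked genes was 9.90, 8.03, 5.58 and 5.97 in *dmbo* replicates 1 to 4, against 10.05, 5.86, 9.92 and 10.02 in WT replicates 1 to 4. Thus *dmbo* replicates 1 and 2 carried both kinds of transcript, *dmbo* replicates 3 and 4 and WT replicate 2 carried the female kind, and the other WT arrays the male kind. The mean signal of 14 lens crystallins was 8.40 to 12.73 in *dmbo* and 7.41 to 9.07 in WT arrays. Array medians ranged over 8.19 to 8.28, and pairs of arrays correlated at 0.989 to 0.998. The *Hmx1* probe set read 8.13 to 8.42 in *dmbo* and 8.21 to 8.32 in WT retinas, and since the mutation is a change within the coding sequence this does not check the genotype. Markers of the retina were present at high signal, with a mean of 12 rod markers of 12.34 to 12.46 in *dmbo* and 12.41 to 12.48 in WT retinas.

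*Rpgrip1* was the one gene of the 9 that was called, and it fell in *dmbo* retinas. Its call was lost without *dmbo* replicates 1 and 2 (limma adjusted p = 0.222) and with a covariate for *Xist* (limma adjusted p = 0.181), while the size of the fall was kept. Over all genes with a symbol, 0.319% were called lower in *dmbo* retinas and 0.314% were called higher. *Nphp4* came next, with *dmbo* arrays below WT arrays but by an amount that missed the adjusted threshold. The means of the other 7 genes differed by less than 0.11 on the log2 scale in either direction, and their arrays overlapped between the groups. Of the 9 genes, 2 had groups that did not overlap, as had 5.83% of all genes, and the same 2 had an unadjusted limma p under 0.05, as had 7.75% of all genes. A log2 fold change below 0 was found for 8 of the 9, where 47.0% of all genes had one. For *Cep290*, *Sdccag8*, *Lca5* and *Iqcb1* it was smaller in size than its standard error. All 9 genes were measured on the same arrays, so their signs are not independent. The median log2 fold change of the 9 genes was -0.03, against 0.0049 over all genes.

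*Rpgrip1* encodes the RPGR-interacting protein, the scaffold that anchors RPGR in the connecting cilium. Its probe set (29 probes) lies on chromosome 14 from 52730597 to 52781014 on the plus strand, in the positions of the deposited table, which names no genome build. Its signal was 12.34, 12.42, 12.34 and 12.40 in *dmbo* replicates 1 to 4, against 12.75, 12.66, 12.69 and 12.68 in WT replicates 1 to 4. Every *dmbo* array lay below every WT array, and the highest *dmbo* array was 0.23 below the lowest WT array. The mean was 12.37 ± 0.04 in *dmbo* and 12.69 ± 0.04 in WT retinas (SD, n = 4 each). This gave a log2 fold change of -0.32 (95% confidence interval -0.41 to -0.22, standard error 0.04, limma adjusted p = 0.0155). On the linear scale the signal fell by 19.8%. The exact permutation test of the 8 arrays gave two-sided p = 0.0286, the smallest that 70 assignments allow. By its p, *Rpgrip1* ranked 51 among the 28350 probe sets. In RNA of a whole retina, fewer cells that express a gene and less of its RNA per cell cannot be told apart.

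The promoter of *Rpgrip1* is shown because HMX1, the factor that is mutated in *dmbo* mice, is known to bind the letters CAAGTG, with CAAG as their core. The RefSeq promoter table (GRCm38.p6, whose positions were not mixed with those of the array table) gave the bases from 250 before to 50 after a transcript start for 8 of the 9 genes, all but *Sdccag8*, in 12 promoters. The stretch below runs from 150 bases before the start to 20 after it, chr14:52110753-52110922 on the plus strand. Capitals mark CAAG on either strand and GGATTA, which is the reverse complement of TAATCC, the letters bound by the photoreceptor factors CRX and OTX2.
Rpgrip1: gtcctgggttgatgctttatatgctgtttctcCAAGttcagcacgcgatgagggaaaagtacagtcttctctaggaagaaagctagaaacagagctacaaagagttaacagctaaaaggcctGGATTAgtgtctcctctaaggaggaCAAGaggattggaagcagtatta
The 250 bases before and 50 after the start of *Rpgrip1* held CAAG at -118 and -3, counted from the start at 1 with no position 0, and no CAAGTG. It held GGATTA at -28. TAATCC on either strand was in 7.06% of the 32851 promoters in the table and in 8.14% of the genes with a promoter. Among the 8 genes it was in *Rpgrip1* alone. The core CAAG was in at least 1 promoter of all 8 genes, in 90.6% of all promoters and in 91.9% of the genes with a promoter. The study's own search for CAAGTG reached further past the start, and its model asked for a pair of sites at a set distance. The searches here do not apply that criterion. A match of letters is a description, and binding was not measured.

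**Figure D1:**
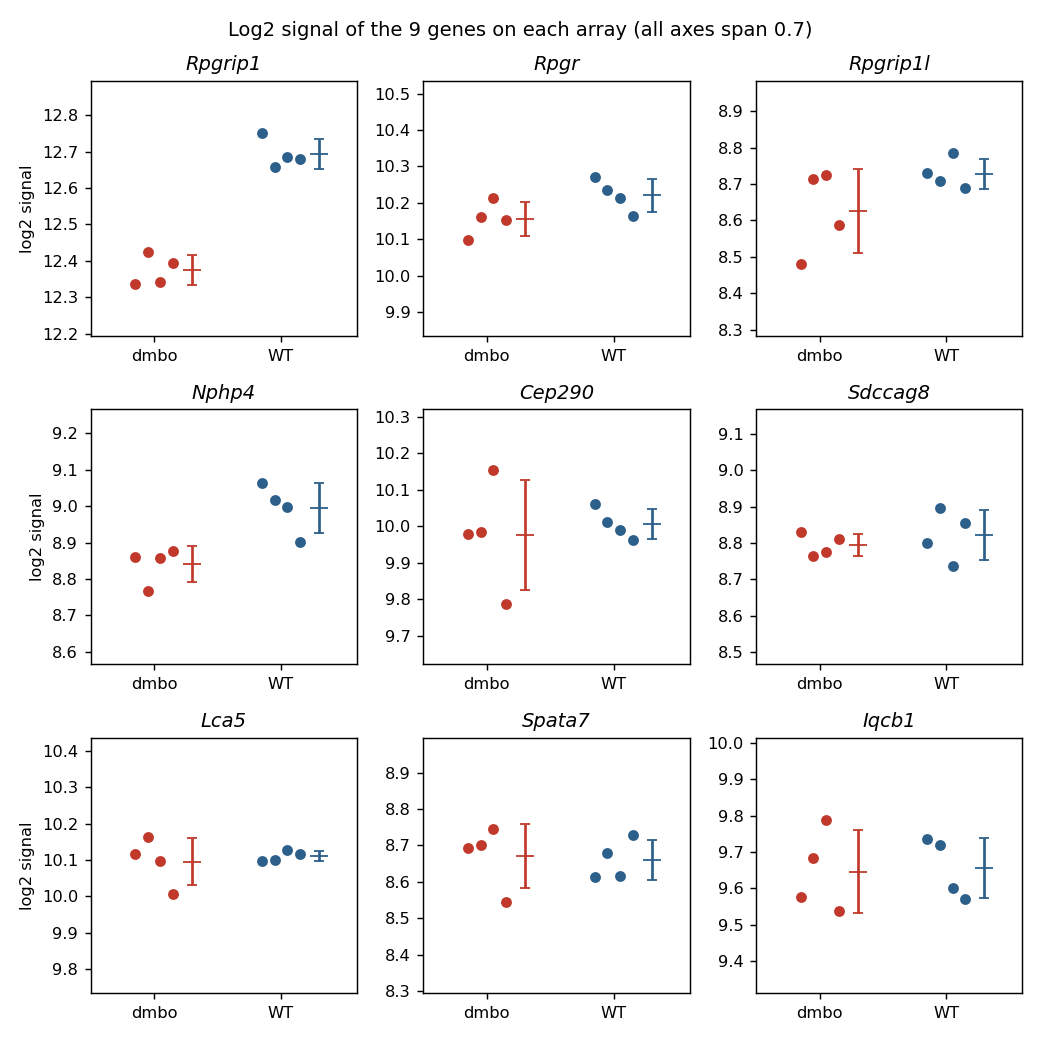
Log2 signal (vertical axes, each spanning 0.7) of the 9 genes on each array, with *dmbo* (red) left of WT (blue). Points are arrays in the order of their replicate number, and the bar beside them is the mean with its SD (n = 4). The arrays of *Rpgrip1* are separated by 0.23 and those of *Nphp4* by 0.02, and the other genes overlap.

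*Rpgr* encodes the GTPase regulator that RPGRIP1 binds, and it is X-linked. Its probe set lies on chromosome X from 9735345 to 9793864 on the minus strand. The signal was 10.10, 10.16, 10.21 and 10.15 in *dmbo* replicates 1 to 4, against 10.27, 10.23, 10.21 and 10.16 in WT replicates 1 to 4. The groups overlapped, with *dmbo* replicate 3 above WT replicate 4. Between the groups, *Rpgr* differed by -0.06 on the log2 scale (95% confidence interval -0.16 to 0.04, standard error 0.04, limma adjusted p = 0.87), and the exact permutation test gave two-sided p = 0.0857. As an X-linked gene it was measured in groups that differ in *Xist*. In the arrays with female transcripts only, *Rpgr* was 10.21 and 10.15 in *dmbo* replicates 3 and 4, against 10.23 in WT replicate 2.

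*Rpgrip1l* encodes the paralog of RPGRIP1, a protein of the transition zone in many cilia. It lies on chromosome 8 from 93740921 to 93837161 on the minus strand. Its signal was 8.48, 8.71, 8.73 and 8.59 in *dmbo* replicates 1 to 4, against 8.73, 8.71, 8.78 and 8.69 in WT replicates 1 to 4. The low values were those of *dmbo* replicates 1 and 4, while *dmbo* replicates 2 and 3 lay within the range of WT. For *Rpgrip1l* the fold change was -0.10 on the log2 scale (95% confidence interval -0.24 to 0.03, standard error 0.06, limma adjusted p = 0.816).

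The change of *Rpgrip1* was set against those of its partner and its paralog within each array, where a shift common to an array drops out. *Rpgrip1* minus *Rpgr* was 2.24, 2.26, 2.13 and 2.24 in *dmbo* replicates 1 to 4, against 2.48, 2.42, 2.47 and 2.52 in WT replicates 1 to 4. *Rpgrip1* minus *Rpgrip1l* was 3.86, 3.71, 3.62 and 3.81 in *dmbo* replicates 1 to 4, against 4.02, 3.95, 3.90 and 3.99 in WT replicates 1 to 4. Both differences were lower on all *dmbo* arrays than on any WT array, by a mean of -0.25 against *Rpgr* and -0.22 against *Rpgrip1l* on the log2 scale. The exact permutation test gave two-sided p = 0.0286 for each, and also after Benjamini-Hochberg adjustment over these 2 comparisons. On these arrays the log2 fold change of *Rpgrip1* was thus lower than that of *Rpgr* and that of *Rpgrip1l*. *Rpgrip1* was chosen with its separation on the same arrays known, so this p is not separate evidence of its fall. Such differences did not overlap between the groups for 7 of the 8 other genes, and against *Nphp4* they overlapped. Against the mean of the 12 rod markers, *Rpgrip1* was -0.11, -0.03, -0.12 and 0.06 in *dmbo* replicates 1 to 4, against 0.27, 0.24, 0.21 and 0.28 in WT replicates 1 to 4. This difference between the groups was -0.30, close to the log2 fold change of *Rpgrip1* itself.

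*Nphp4* encodes nephrocystin-4, which binds RPGRIP1 and RPGRIP1L at the transition zone. It lies on chromosome 4 from 151852251 to 151937291 on the plus strand. Its signal was 8.86, 8.77, 8.86 and 8.88 in *dmbo* replicates 1 to 4, against 9.06, 9.02, 8.997 and 8.90 in WT replicates 1 to 4. The groups did not overlap, but *dmbo* replicate 4 and WT replicate 4 lay only 0.02 apart. A log2 fold change of -0.15 was found for *Nphp4* (95% confidence interval -0.26 to -0.04, standard error 0.05). Its unadjusted limma p of 0.0109 ranked 838 among the 28350 probe sets, and its adjusted p was 0.368, so the gene was not called. The exact permutation test gave two-sided p = 0.0286.

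The only CAAGTG among the promoters of the 8 genes stood in *Nphp4*, once in each of 2 of its 3 promoters. The windows of 60 bases around them are given here, with the motif in capitals (CACTTG is CAAGTG on the other strand), at chr4:152476542-152476601 and chr4:152477917-152477976 of GRCm38.p6, both on the plus strand.
Nphp4 promoter 1: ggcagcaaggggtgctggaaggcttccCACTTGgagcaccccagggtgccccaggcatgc
Nphp4 promoter 3: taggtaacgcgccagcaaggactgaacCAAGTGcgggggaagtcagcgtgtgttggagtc
The motif began at -137 in the first and at -198 in the third, each counted from the start of its own promoter. CAAGTG on either strand was in 13.6% of all promoters and in 15.4% of the 27025 genes with a promoter. Every CAAGTG also holds the core CAAG, so the 2 searches overlap.

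*Cep290* encodes a large protein of the Y-shaped links between the axoneme and the membrane of the connecting cilium. It lies on chromosome 10 from 99950941 to 100036290 on the plus strand and was read by 57 probes, the most of the 9 genes. Its signal was 9.98, 9.99, 10.15 and 9.79 in *dmbo* replicates 1 to 4, against 10.06, 10.01, 9.99 and 9.96 in WT replicates 1 to 4. Both the highest and the lowest array were *dmbo* arrays, replicates 3 and 4. Between the groups, *Cep290* differed by -0.03 on the log2 scale (95% confidence interval -0.19 to 0.13, standard error 0.07, limma adjusted p = 0.985).

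*Iqcb1* encodes nephrocystin-5, which binds CEP290, and lies on chromosome 16 from 36828493 to 36872807 on the plus strand. Its signal was 9.58, 9.68, 9.79 and 9.54 in *dmbo* replicates 1 to 4, against 9.73, 9.72, 9.60 and 9.57 in WT replicates 1 to 4. As for *Cep290*, the highest array was *dmbo* replicate 3 and the lowest was *dmbo* replicate 4. For *Iqcb1* the fold change was -0.01 on the log2 scale (95% confidence interval -0.16 to 0.14, standard error 0.07, limma adjusted p = 0.997).

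*Sdccag8* encodes a centrosomal protein of the ciliary base and lies on chromosome 1 from 178744791 to 178950566 on the plus strand. Its signal was 8.83, 8.76, 8.77 and 8.81 in *dmbo* replicates 1 to 4, against 8.80, 8.90, 8.74 and 8.85 in WT replicates 1 to 4. All *dmbo* arrays lay within the range of WT. A log2 fold change of -0.03 was found for *Sdccag8* (95% confidence interval -0.13 to 0.08, standard error 0.05, limma adjusted p = 0.982).

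*Lca5* encodes lebercilin, a protein of the ciliary axoneme that takes part in transport along it. It lies on chromosome 9 from 83284962 to 83334705 on the minus strand. Its signal was 10.12, 10.16, 10.10 and 10.01 in *dmbo* replicates 1 to 4, against 10.10, 10.10, 10.13 and 10.12 in WT replicates 1 to 4. The WT arrays lay close together, and *dmbo* arrays lay on both sides of them. Between the groups, *Lca5* differed by -0.02 on the log2 scale (95% confidence interval -0.12 to 0.09, standard error 0.04, limma adjusted p = 0.992).

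*Spata7* encodes a protein that binds RPGRIP1 at the connecting cilium of mouse photoreceptors, and it was the one gene of the 9 with a positive log2 fold change. It lies on chromosome 12 from 99866367 to 99908025 on the plus strand. Its signal was 8.69, 8.70, 8.75 and 8.55 in *dmbo* replicates 1 to 4, against 8.61, 8.68, 8.62 and 8.73 in WT replicates 1 to 4. The lowest and the highest arrays were again *dmbo* replicates 4 and 3. For *Spata7* the fold change was 0.01 on the log2 scale (95% confidence interval -0.11 to 0.13, standard error 0.05, limma adjusted p = 0.995).

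For the 8 genes that were not called, the intervals bound the size of the change. The interval of *Nphp4* reached -0.26, and those of the other 7 genes lay within -0.24 and 0.14 on the log2 scale, below a 1.2-fold change in both directions. These intervals belong to the fit with all arrays and no covariate, and the bound did not hold under some alternatives. With a crystallin covariate *Cep290* was 0.18 (standard error 0.06, limma adjusted p = 0.154). *Iqcb1* was then 0.18 (standard error 0.06, limma adjusted p = 0.142), and both lay outside the intervals above and had the other sign. With the *Xist* covariate *Rpgrip1l* was -0.14 (standard error 0.08). Without *dmbo* replicates 1 and 2 *Cep290* was -0.04 (standard error 0.10). Errors of that size leave room for a 1.2-fold fall. The spread between arrays was larger in *dmbo* than in WT for 7 of the 9 genes. The highest *dmbo* array was replicate 3 for 5 genes and the lowest was replicate 4 for 4 genes.

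**Figure D2:**
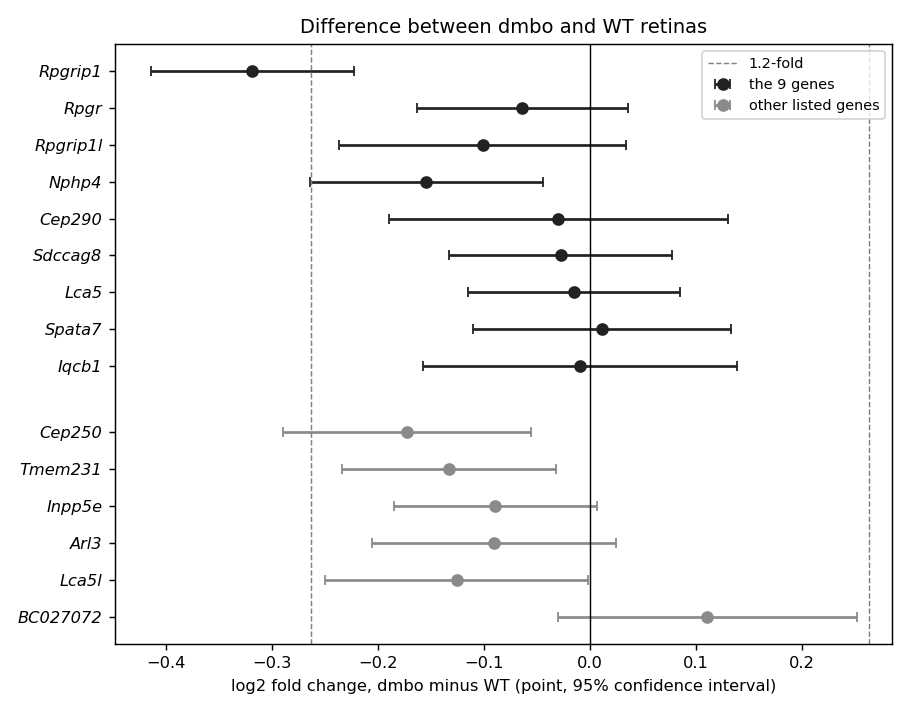
Log2 fold change, *dmbo* minus WT (horizontal axis), of the 9 genes (black) and of the 6 other genes named from the cilium lists (grey). Points are limma estimates, bars are 95% confidence intervals (n = 4 arrays in each group) and dashed lines mark 1.2-fold. *Rpgrip1* at -0.32 is the only point beyond a dashed line.

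Other genes of the same structures gave no call, where 0.319% of all genes were called lower and 0.314% higher, so that lists of this size could hold none at the rate of all genes. A list of 37 further genes of the connecting cilium and transition zone had 0 called, with 3 at an unadjusted limma p under 0.05, all lower in *dmbo*, which is near the 7.75% of all genes. Log2 fold changes were below 0 for 21 of the 37 and above 0 for 16, with a median of -0.02 against 0.0049 over all genes. The lowest p was that of *Cep250*, which encodes a linker protein of the centrosome. Its signal was 8.80, 8.69, 8.88 and 8.76 in *dmbo* replicates 1 to 4, against 8.92, 9.02, 8.91 and 8.98 in WT replicates 1 to 4. The arrays did not overlap, and the log2 fold change was -0.17 (standard error 0.05, limma adjusted p = 0.333). *Tmem231*, a membrane protein of the transition zone, was 9.54, 9.49, 9.54 and 9.53 in *dmbo* replicates 1 to 4, against 9.60, 9.69, 9.73 and 9.61 in WT replicates 1 to 4. These arrays did not overlap either, and the log2 fold change was -0.13 (standard error 0.05, limma adjusted p = 0.424).

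The RPGR complex also serves proteins that carry a lipid anchor, which are ferried to the cilium by PDE6D and UNC119 and released by ARL3. Of 14 genes of this list 0 were called and 0 had an unadjusted limma p under 0.05, with 10 log2 fold changes below 0, 4 above 0 and a median of -0.03. *Inpp5e*, a ciliary phosphoinositide phosphatase and a cargo of this route, had a log2 fold change of -0.09 (limma adjusted p = 0.706) with arrays that did not overlap. *Arl3* had -0.09 (limma adjusted p = 0.795) with arrays that did. Of 12 genes of the photoreceptor axoneme and discs, 0 were called and 1 had an unadjusted limma p under 0.05. That gene was *Lca5l*, the paralog of *Lca5*, with a log2 fold change of -0.13 (limma adjusted p = 0.642) and arrays that overlapped. Its mean signal was 7.04 in *dmbo* and 7.16 in WT retinas, below the median of 8.22 over all probe sets. *BC027072* had 0.11 (limma adjusted p = 0.796). The median of this list was -0.03.

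Beside the fall of *Rpgrip1*, markers of the cells that express it and of other cells were read on the same arrays. Over all genes, 0.319% were called lower and 0.314% higher. An unadjusted limma p under 0.05 was found for 7.75% of all genes, and groups that did not overlap for 5.83%. Of 12 rod markers 0 were called and their median log2 fold change was -0.03, with a summed linear signal of 76409 to 82000 in *dmbo* and 79858 to 83547 in WT retinas. Of 9 cone markers 0 were called, with a median of -0.12 and a summed signal of 17046 to 19239 in *dmbo* and 17279 to 19208 in WT retinas. Of these cone markers 4 had an unadjusted limma p under 0.05 and arrays that did not overlap, with log2 fold changes of -0.37 for *Pde6h*, -0.25 for *Pde6c*, -0.21 for *Cnga3* and 0.22 for *Gnat2*. Of 8 Müller glia markers 2 were called higher, *Kcnj10* and *Aqp4*, a potassium and a water channel, and the summed signal was 23665 to 26432 in *dmbo* and 21826 to 22789 in WT retinas. In this list 4 markers with higher means had an unadjusted limma p under 0.05. So had 1 with a lower mean, *Rlbp1*, with a log2 fold change of -0.105 and arrays that did not overlap. Of 6 amacrine markers 1, the glycine transporter gene *Slc6a9*, was called lower, and the summed signal was 11081 to 12786 in *dmbo* and 13670 to 14779 in WT retinas. All 6 had lower means in *dmbo*, and 3 had an unadjusted limma p under 0.05 and arrays that did not overlap. Their log2 fold changes were -0.38 for *Slc6a9*, -0.36 for *Tcfap2b* and -0.16 for *Slc32a1*. The study proposes *Slc6a9* as a direct target of *Hmx1*. The part of the Müller glia and amacrine shifts was not tested. Of 20 lens markers all had higher means in *dmbo*, 16 with an unadjusted limma p under 0.05 and 0 called, and the summed signal was 6907 to 119296 in *dmbo* and 4166 to 11662 in WT retinas. Of 4 blood markers 0 were called, but the 3 haemoglobin genes had an unadjusted limma p under 0.05, with log2 fold changes of -0.58 for *Hbb-b1*, -0.60 for *Hbb-b2* and -0.52 for *Hba-a1*, and the summed signal was 3645 to 5631 in *dmbo* and 5004 to 7489 in WT retinas. The part of the lens, cone and blood shifts in the value of *Rpgrip1* was not tested beyond the crystallin covariate. Markers of the pigment epithelium, bipolar cells and ganglion cells had 0 called of 10, 6 and 6.

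The fall of *Rpgrip1* kept its size when lens signal was taken into the fit. It also kept its size without the arrays that carried transcripts of both sexes, but its call did not hold there. The *dmbo* array with the least crystallin, replicate 3 at 8.40, lay within the range of WT crystallin and had *Rpgrip1* at 12.34, but this is 1 array. With the crystallin mean as a covariate the log2 fold change was -0.33 (limma adjusted p = 0.058). This covariate is partly confounded with genotype, and a cause of the fall was not tested. Without *dmbo* replicates 1 and 2 it was -0.32 (limma adjusted p = 0.222), so that 0 of the 9 genes were called, and 44 of all genes were called against 137 with all arrays. With a covariate for the *Xist* signal of each array it was -0.31 (limma adjusted p = 0.181), again with 0 of the 9 genes called. Among arrays with female transcripts only, *Rpgrip1* was 12.34 and 12.40 in *dmbo* replicates 3 and 4, against 12.66 in WT replicate 2. No *dmbo* array carried male transcripts only, so no such comparison could be made for males. Leaving out 1 array at a time gave -0.34 to -0.30 with a limma adjusted p of 0.0254 to 0.0649, and the gene remained called each time. *Nphp4* had -0.13 without *dmbo* replicates 1 and 2 and was not called under any alternative.

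**Figure D3:**
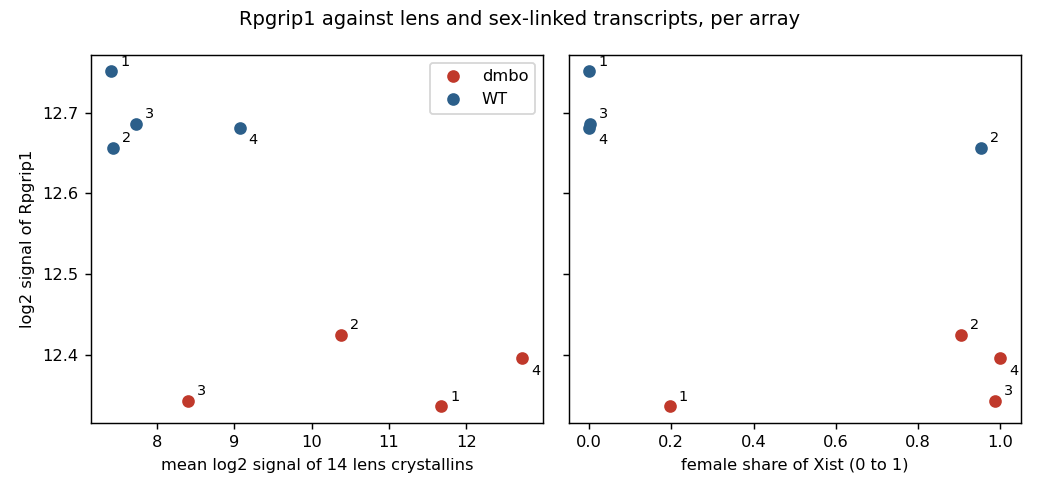
Log2 signal of *Rpgrip1* (vertical axis) on each array against the mean log2 signal of 14 lens crystallins (left) and the female share of *Xist* (right, 0 at the lowest array and 1 at the highest). Red points are *dmbo* and blue points WT arrays, numbered by replicate. The *dmbo* points lie between 12.34 and 12.42 and the WT points between 12.66 and 12.75 on both panels.

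The neighbours of *Rpgrip1* on chromosome 14 were read for changes of the same kind. On its left side the nearest probe sets with 1 symbol were *Olfr221*, *Snord58b* and *Hnrnpc*, with log2 fold changes of -0.04, -0.02 and 0.08. On its right side *Supt16h*, *Chd8* and *Snord8* had 0.01, -0.02 and 0.00. None of the 6 was called. The mean signals of *Olfr221* and *Snord58b* were 6.62 and 4.93, below the median of 8.22 over all probe sets. Among the uncalled genes within 1 Mb, *Mettl3* and *Ndrg2* had the lowest p. *Mettl3* had a log2 fold change of -0.27 (limma adjusted p = 0.118) and *Ndrg2* had 0.23 (limma adjusted p = 0.144). *Supt16h*, a histone chaperone gene on the other strand, overlaps the *Rpgrip1* probe set by 926 bases in the table's positions, and its limma adjusted p was 0.996. Within 1 Mb of *Rpgrip1*, 2 of 83 probe sets were called. The second was *Slc39a2*, a zinc transporter gene at 52513315 to 52516420, with a mean signal of 8.07 in *dmbo* and 8.60 in WT retinas, a log2 fold change of -0.53 and a limma adjusted p of 0.0127. Over all of chromosome 14, 28 of 1133 probe sets were called (2.47%), 20 of them lower, against 153 of 27217 on the other chromosomes (0.562%). Within 1 Mb of each of the other 8 genes 0 probe sets were called, of 8 to 40 in each case. Sequence of the original *dmbo* line left near *Rpgrip1* after the backcross was not tested. In these groups it cannot be told apart from the mutation of *Hmx1*.

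**Figure D4:**
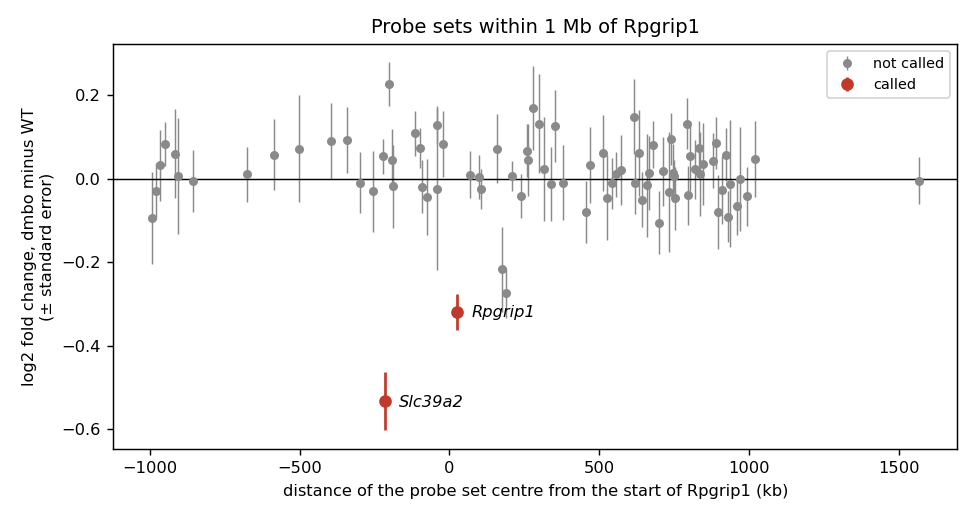
Log2 fold change, *dmbo* minus WT (vertical axis, point with standard error, n = 4 arrays in each group), of the 83 probe sets that reach within 1 Mb of *Rpgrip1*, against the distance of their centre from its start in kb. The 2 called probe sets (red) are *Rpgrip1* at -0.32 and *Slc39a2* at -0.53.

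The genes most like *Rpgrip1* from array to array, once each group's mean was subtracted, were *Olfr125*, *Gm1077*, *Wfdc16*, *Gm13154* and *Cyp4a14* (Pearson r of 0.97, 0.95, 0.95, 0.95 and 0.94 over 8 arrays). They are the highest of all genes with a symbol, given as a description. All 5 had a mean signal between 5.40 and 6.79, below the median of 8.22 over all probe sets, and all values share the same 8 arrays and their normalization.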

How the data were processed

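Total RNA of whole retinas of 4 *dmbo* and 4 WT mice was measured on 1-colour Affymetrix Mouse Gene 1.0 ST arrays. The authors made the deposited log2 values with RMA, which corrects the background, normalizes arrays by quantiles and summarizes the probes of each probe set. For RMA no version is given in the sources used here. Quantile normalization takes out shifts common to an array, and a change that affects most genes could not be seen. The deposited fold change, p-value and adjusted p columns are the authors' own comparison and were not used. The 8 array columns held the same values in both deposited tables.

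All 28350 probe sets entered a linear model of *dmbo* minus WT (limma 3.58.1, R 4.3.3), two-sided, with empirical Bayes variances and Benjamini-Hochberg adjustment over all probe sets. A total of 25004 probe sets carried 1 symbol, 3344 none and 2 several. Calls used the threshold of the study's methods. Exact permutation tests were run over the 70 assignments (scipy 1.17.1). The number of arrays limits the precision. The fit was also run on simulated arrays with independent noise for each probe set. These lacked the shared sex and lens differences of the real arrays, so that run does not test the calls given here.

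The genes, the lists and the alternatives were chosen with earlier results of these data known. All 9 genes were named with every array, and from each cilium list the called genes, or else the 2 with the lowest p. The 3 nearest genes on each side of *Rpgrip1*, called genes within 1 Mb, the 2 uncalled genes there with the lowest p and the 5 most correlated genes were named too. Alternatives were median centring, cyclic loess, filters on probe sets, the variance prior, array weights, a replicate block, the probe set of a gene, the minimum fold, each array left out, *dmbo* replicates 1 and 2 left out, and covariates for *Xist* and crystallins. Promoters came from RefSeq (GRCm38.p6). Sequences of proteins were not used here.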

Additional observations from a re-analysis of the deposited data

Results flagged for a closer look

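Of 30 groups of 4 arrays tested with Dixon's ratio, 1 held an array far from the others, where chance gives about 1 in 20. It was *Tmem231* in *dmbo* replicate 2, the lowest of its group at a log2 signal of 9.49 (9.4885), against 9.53 to 9.54 on the other *dmbo* arrays and 9.60 to 9.73 on the WT arrays. The gap made up 0.848 of the range, above the critical value for groups of 4.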

How the results depend on the processing

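*Rpgrip1* kept its direction under the 14 alternatives that changed its fold (-0.34 to -0.30). It kept its call under 17 of 19 alternatives (limma adjusted p 0.000237 to 0.222 over the 19). The alternatives of the 19 outside those 14 left the fold as it was by construction. They changed only its error or the adjustment. Without *dmbo* replicates 1 and 2 it was -0.32, and with the *Xist* covariate -0.31, and 0 of the 9 genes were then called under either. The replicate numbers did not pair the samples (correlations of -0.03, -0.02, 0.03 and 0.43 for the 4 pairs of equal number). With a replicate block *Rpgrip1* was -0.32 (limma adjusted p = 0.0832) and 113 genes were called. The count of all called genes, 137, became 253 with array weights, 44 without *dmbo* replicates 1 and 2, 34 with the *Xist* covariate and 669 with the crystallin covariate. Leaving out 1 array gave 70 to 154 called genes, among them 88 when *dmbo* replicate 1 was absent, 81 for *dmbo* replicate 2, 72 for WT replicate 1, 70 for WT replicate 2 and 70 for WT replicate 3. Genes near 0 changed sign while uncalled. *Lca5* was 0.014 with array weights. With the crystallin covariate *Rpgr* was 0.0043, *Rpgrip1l* 0.022, *Cep290* 0.18, *Lca5* 0.026 and *Iqcb1* 0.18. Without *dmbo* replicates 1 and 2 *Spata7* was -0.015 and *Iqcb1* 0.0070. Leaving out 1 array gave -0.089 to 0.033 for *Cep290*, -0.038 to 0.015 for *Lca5*, -0.013 to 0.053 for *Spata7* and -0.057 to 0.027 for *Iqcb1*. The cause of these changes was not tested. *Nphp4* and *Sdccag8* stayed below 0 and uncalled under all 19, and *Nphp4* had its lowest limma adjusted p, 0.0948, with array weights, under the minimum fold. The cilium lists had 0 genes called under every alternative run. Both covariates are partly confounded with genotype, and with 4 arrays in each group a small change can be missed.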
